A study of Mus musculus and Rattus norvegicus with 53 samples.

Results

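The transcripts described here are 33 genes that are commonly used to recognise the cells of blood vessels, 21 for endothelial cells and 12 for mural cells. They were taken by symbol from the 24016 genes listed in each mouse count file, whatever their values, and followed in tdTomato-sorted preparations of sciatic nerve. The endothelial list held the junction and adhesion genes Pecam1, Cdh5, Esam, Cldn5, Icam2 and Podxl, the growth factor receptors and co-receptors Kdr, Flt1, Tek, Tie1, Eng and Ramp2, the transcription factors Erg and Tal1, and Emcn, Egfl7, Vwf, Plvap, Robo4, Ly6c1 and Ly6a. The mural list held Rgs5, Pdgfrb, Cspg4, Kcnj8, Abcc9, Notch3, Mcam and Higd1b, which are used for pericytes, and Acta2, Tagln, Myh11 and Des, which belong to the contractile and filament apparatus of smooth muscle and other muscle.

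Endothelial cells line every vessel and are held together by junction proteins such as VE-cadherin (Cdh5) and claudin 5 (Cldn5). They read growth signals through the VEGF receptors (Kdr, Flt1) and the angiopoietin receptor (Tek), and they are wrapped by mural cells, which are pericytes on capillaries and smooth muscle cells on larger vessels. In peripheral nerve, tight endothelial junctions form the blood-nerve barrier, and after transection new vessels grow into the tissue that bridges the gap before Schwann cells (SCs) do. Not every gene of the lists is exclusive to vessels: Ly6a, Ly6c1 and Pdgfrb are also known from fibroblasts, Mcam and Cspg4 from glia, and Acta2 and Tagln from contractile fibroblasts. These are examples, and the other genes, Cldn5 among them, were not checked for expression outside vessels.

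All mice carried P0A-Cre, in which a promoter active in Schwann cells drives Cre, and the Rosa26-tdTomato reporter, so that tdTomato marks cells in which Cre was active at any time. Adult male and female animals underwent transection of 1 sciatic nerve, and tdTomato+ cells were sorted from the uninjured nerve (iSCs), from the stump distal to the cut (dSCs) and from the nerve bridge (bSCs). In the pooled experiment, nerves of 3 mice were combined per library and collected at day 6, with 4 libraries per region. In the single-nerve experiment, 35 libraries were made from the nerves of single mice, 5 of them iSCs. The dSCs were sampled on days 1 and 2 and, like the bSCs, on days 4, 6, 8 and 10, with 3 libraries per region and day. Counts on genes ranged from 11435463 to 22617054 per pooled library and from 9240883 to 22426128 per single-nerve library. Levels are in CPM, a gene's counts relative to the total of its library, scaled with edgeR's TMM factors.

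Transcripts used as markers of other cell types were also read in the sorted preparations, and whether other cells or the tdTomato+ cells themselves carried them was not tested. The SC transcription factor Sox10 was detected in all 47 libraries, at 6.85 to 422 CPM. The summed level of 12 macrophage markers was 224 to 5691 CPM in pooled iSCs, 2495 to 7677 in bSCs and 9833 to 16019 in dSCs, while 11 fibroblast markers summed to 11157 to 57340, 19768 to 35748 and 34817 to 50905 CPM in the same order. Skeletal muscle markers summed to at most 21.9 CPM in any library. In sorted bulk samples of this kind, fewer cells of a type and less RNA per cell cannot be told apart.

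Some single-nerve libraries stood apart. The dSC and bSC libraries of day 4 replicate 1, which the labels assign to the same animal, were almost alike: their counts differed by a chi-square per degree of freedom of 3.96, against at least 47.9 for any other of the 1081 pairs of libraries and 1.13 to 1.32 between lanes of 1 library. Because the labels give them different regions, results of the single nerves are given with both and without both. In 4 further libraries few genes were detected, 10042 to 11138, against at least 11983 in every other library; these were iSC replicates 0 and 1, dSC day 1 replicate 1 and dSC day 2 replicate 0.

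All 33 genes passed edgeR's filter on low counts in both experiments, which left 13751 and 15519 genes to be tested. The 21 endothelial genes summed to 998 to 1795 CPM in pooled iSCs, 399 to 2721 in bSCs and 1281 to 1688 in dSCs. The 12 mural genes summed to 463 to 2200 CPM, 688 to 2006 and 403 to 497 in the same order. Both lists therefore had counts in every sorted pool, and the widest range was that of the endothelial list in bSCs. Of the 12 mural genes, 8 to 10 had counts in each bSC pool. The largest part of the mural sum there was Acta2, Mcam or Tagln, at 27.2% to 39.5%.

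Per kilobase of exon, Ly6a (228 CPM per kb), Plvap (204) and Ly6c1 (134) had the highest mean levels of the endothelial list in pooled bSCs. The same 3 genes led in dSCs, with Ly6a at 678, Ly6c1 at 257 and Plvap at 78.4 CPM per kb. Among mural genes in bSCs, Acta2 (174 CPM per kb) and Tagln (159) led, followed by Mcam (72.3), and Higd1b was at 0. Reads of Ly6a and Ly6c1 are uncertain, since these belong to a family of close copies.

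Pooled bSCs were compared with dSCs to ask how the vessel transcripts differed between bridge and distal stump. Of the 33 genes, 3 passed an adjusted p of 0.05 in edgeR's quasi-likelihood test: Kdr and Tagln were higher in bSCs and Myh11 was lower. Over all genes 5.43% passed, 2.31% as higher and 3.11% as lower. The remaining 20 endothelial genes and 10 mural genes did not pass. The p-values measure the spread between the pools.

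Kdr, the main signalling receptor for VEGF (chromosome 5, 76328852 to 76374483, minus strand, NCBIM37), was at 170, 65.2, 22.7 and 10.4 CPM in bSC replicates 1, 2, 3 and 5. In dSCs it was at 13.5, 5.78, 9.16 and 6.04 CPM in replicates 1, 2, 3 and 5. Replicates 1 to 3 of bSCs were above every dSC pool, and replicate 5 was not. The log2 difference was 2.96 (SE 0.78, adjusted p = 0.0430, edgeR, n = 4 per group). It kept its call only without bSC replicate 3 or 5, and without bSC replicate 1 it was 1.94 (adjusted p = 0.119, edgeR). With the pool number as a block, the difference was 2.33 (adjusted p = 0.0905, edgeR).

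Other receptors gave values of both signs. Tek, the angiopoietin receptor, was at 16.9, 35.3, 37.6 and 8.21 CPM in bSCs and at 57.4, 66.1, 35.2 and 38.0 in dSCs (log2 -1.0, SE 0.47, adjusted p = 0.239, edgeR). Eng, a TGFβ co-receptor, was at 266, 142, 229 and 52.1 CPM in bSCs and at 55.2, 65.7, 134 and 50.7 in dSCs (log2 1.17, SE 0.48, adjusted p = 0.168, edgeR). The groups overlapped for both genes, and neither passed. Flt1, the second VEGF receptor, was at 37, 48, 18.2 and 2.84 CPM in bSCs and at 0.995, 0, 14.8 and 7.83 in dSCs, which also overlapped (log2 2.16, SE 1.27, adjusted p = 0.362, edgeR).

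The junction genes commonly used to recognise endothelium did not pass. Pecam1 (CD31) was at 179, 105, 106 and 14.2 CPM in bSCs and at 32.4, 59.4, 100 and 27.1 in dSCs (log2 0.88, SE 0.75). Cdh5 was at 65.9, 51.9, 43.7 and 12.9 CPM against 62.0, 50.7, 33.9 and 20.7 (log2 0.06, SE 0.57). Cldn5 was at 81.4, 105, 31.8 and 77.1 CPM against 18.2, 38.5, 20.8 and 8.13 (log2 1.79, SE 0.70). Adjusted p-values of the 3 genes were 0.559, 0.971 and 0.150 (edgeR). Esam, another junction molecule, had values of 179, 120, 288 and 20.2 CPM in bSCs and 42.0, 34.0, 94.5 and 12.1 in dSCs (log2 1.73, adjusted p = 0.290, edgeR), and with the pool number as a block it passed (log2 1.60, adjusted p = 0.0448). For these genes bSC replicate 5 was the lowest bSC pool except for Cldn5.

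The same pool was low across the list: bSC replicate 5 was the lowest of 4, or tied for it, in 19 of the 21 endothelial genes, and its sum of 399 CPM compared with 1587 to 2721 in the other 3 pools. Plvap, the protein of fenestral diaphragms, was at 63.6 CPM there and at 302 to 720 in the others. Vwf, the clotting factor carrier of endothelium, was at 0 there and at 52.9 to 87.2 in the others. Of the 11 mural genes with counts in bSCs, this pool was the highest of 4 in 6. It was the lowest in 4, where ties are counted to it: Abcc9 and Myh11 were at 0 in other bSC pools too. Fitted without it, 2 genes of the lists were called (beside 424 of all 14164 genes tested), against 3 with it (beside 746 of 13751). Its part in the results above beyond these values was not tested.

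The remaining endothelial genes overlapped between the regions. Emcn, a sialomucin of veins and capillaries, was at 19.7 to 187 CPM in bSCs and 11.6 to 44 in dSCs (log2 1.87, SE 0.71, adjusted p = 0.134, edgeR). Robo4, a guidance receptor of endothelium, was at 13.7 to 58.3 CPM and 1.49 to 16 (log2 2.14, SE 1.02, adjusted p = 0.248, edgeR), and Tie1 at 8.39 to 96.8 and 4.7 to 49.8. The transcription factors were near the limit of detection, Erg at 0 to 7.4 CPM in bSCs and 0 to 7.42 in dSCs and Tal1 at 0 to 7.44 and 0 to 2.88. Egfl7 (11.1 to 62.5 CPM in bSCs and 27.5 to 46.2 in dSCs), Podxl (0.466 to 53 and 2.76 to 29.2), Ramp2 (6.9 to 117 and 63.5 to 93.6) and Icam2 (8.3 to 39 and 0.0765 to 8.94) had adjusted p-values of 0.230 to 0.820 (edgeR).

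Over the endothelial list, 15 of 21 fitted log2 differences were above 0, with a median of 1.17, beside 46.9% above 0 and a median of -0.07 over all genes tested. Ly6a (log2 -1.57, SE 0.70, adjusted p = 0.209, edgeR), Ly6c1, Ramp2, Tek, Vwf and Erg had values below 0. Unadjusted p-values were under 0.05 in 6 of the 21 genes, beside 2957 of all 13751 genes tested (edgeR). The mean sum over the list was 1761 CPM in bSCs and 1520 in dSCs, a log2 ratio of 0.21 beside an SD between pools of 1.26. This sum leaned on Ly6a in one region. Ly6a was the largest part of it in every dSC pool, at 21.3% to 59.8%. In the bSC pools the largest part was Plvap or Cldn5.

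**Figure D1:**
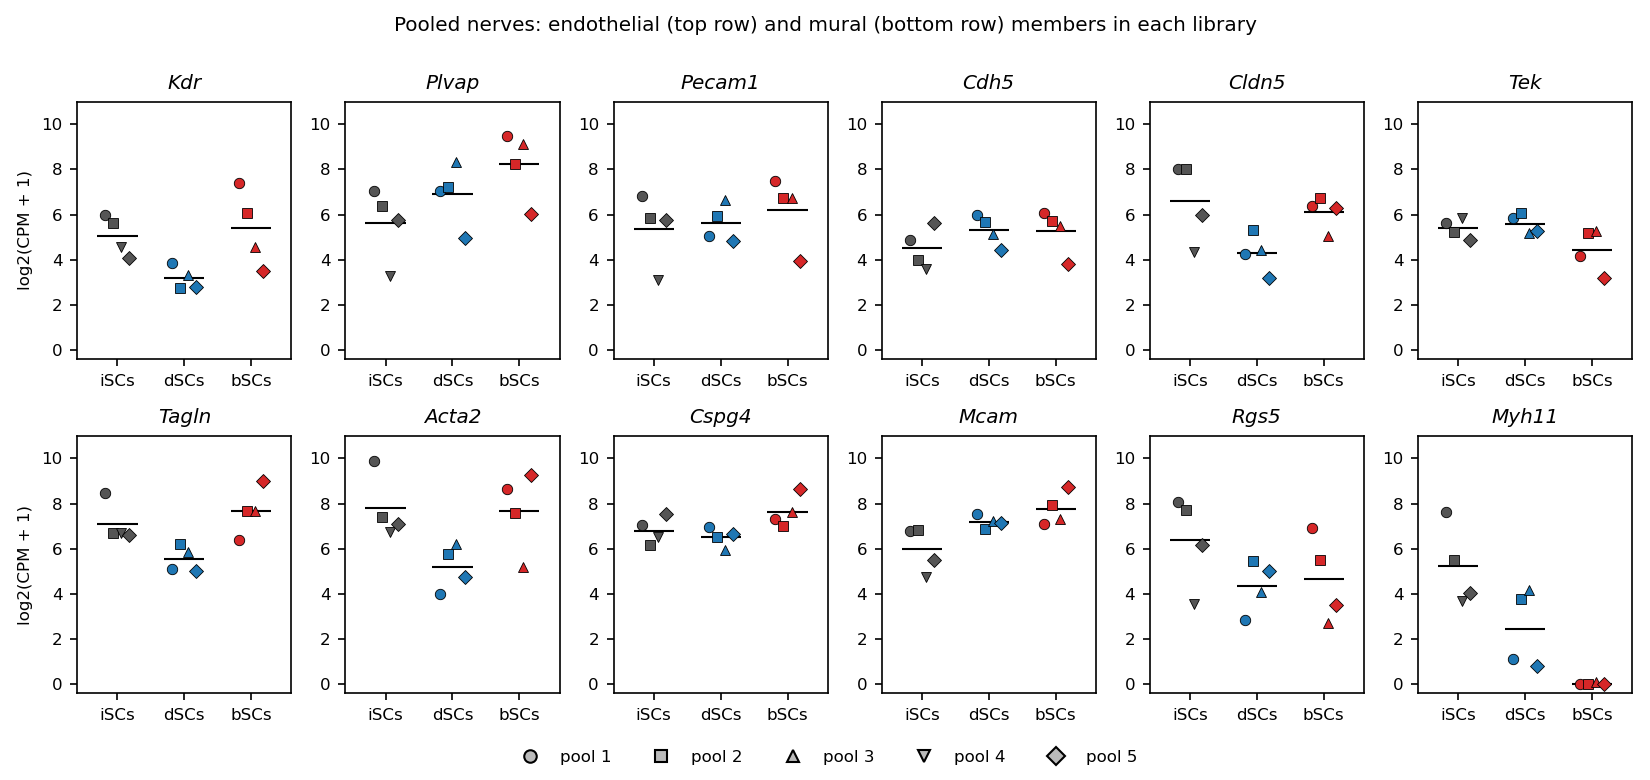
Each panel shows 1 gene, log2(CPM + 1) on the vertical axis against region (4 iSC, 4 dSC and 4 bSC libraries), with a marker shape for each pool number and a line at the mean of the 4 values; endothelial genes are in the top row and mural genes in the bottom row. The bSC pools of Tagln lie above all dSC pools, those of Myh11 lie at or near 0, and pool 5 is the lowest bSC point for Kdr, Plvap, Pecam1, Cdh5 and Tek.

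The contractile genes went in opposite directions between bSCs and dSCs. Tagln (transgelin, chromosome 9, 45737711 to 45744141, minus strand) was at 82.2, 206, 200 and 518 CPM in bSC replicates 1, 2, 3 and 5. In dSCs it was at 33, 72.8, 56.4 and 31.0 CPM. Every bSC pool was above every dSC pool, and the log2 difference was 2.38 (SE 0.58, adjusted p = 0.0320, edgeR, n = 4 per group). The call held only without bSC replicate 1; in the other 7 omissions the adjusted p was 0.05 to 0.0926 (edgeR), with a log2 value of 1.75 without bSC replicate 5. With the pool number as a block it was 2.32 (adjusted p = 0.124, edgeR). The exons of Tagln share 65 bases with Pcsk7 on the opposite strand, and these libraries do not keep strand.

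Myh11, the heavy chain of smooth muscle myosin and the most restricted of the smooth muscle genes here (chromosome 16, 14194620 to 14291501, minus strand), had no count in 3 bSC pools and 1 count in replicate 3. In dSCs it was at 1.15, 12.6, 16.8 and 0.746 CPM, and all dSC pools were above all bSC pools. The summed counts were 1 in bSCs and 441 in dSCs, which at their depths is a ratio of 555 (95% exact counting interval 99.1 to 21962, counting error only). In the fit the log2 value was -8.37 (SE 1.77, adjusted p = 0.0130, edgeR), a size that depends on the prior count. The call held in all 8 fits that left out 1 pool (log2 -9.94 to -7.68) and with the pool number as a block (adjusted p = 0.0306, edgeR).

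Acta2, smooth muscle actin (chromosome 19, 34315580 to 34329826, minus strand), was at 401, 191, 35.4 and 612 CPM in bSCs. In dSCs it was at 15.2, 53.5, 72.9 and 26.1 CPM. Replicate 3 of bSCs fell within the dSC range and the other 3 pools were above it (log2 2.89, SE 0.88, adjusted p = 0.0716, edgeR). Without that pool the log2 value was 3.26 (adjusted p = 0.0414, edgeR). Des, the muscle intermediate filament, was at 10.3, 6.07, 7.13 and 14.2 CPM in bSCs and at 0.0765, 0, 2.73 and 0 in dSCs, without overlap (log2 3.73, SE 2.17, adjusted p = 0.351, edgeR). With Cspg4, described below, 3 genes of the lists had all bSC pools above all dSC pools and 1, Myh11, had all below, beside 6.77% and 8.62% of all genes.

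The sequences immediately upstream of 3 of these genes are shown because contractile genes of smooth muscle are textbook targets of serum response factor, which binds the CArG box. Each window holds the 300 bases before the annotated start on NCBIM37, read 5′ to 3′ on the gene's strand, and capitals mark a match to the CArG box with at most 1 mismatch in its AT-rich core; the box reads the same way on both strands.
Tagln, chr9:45744142-45744441, minus strand: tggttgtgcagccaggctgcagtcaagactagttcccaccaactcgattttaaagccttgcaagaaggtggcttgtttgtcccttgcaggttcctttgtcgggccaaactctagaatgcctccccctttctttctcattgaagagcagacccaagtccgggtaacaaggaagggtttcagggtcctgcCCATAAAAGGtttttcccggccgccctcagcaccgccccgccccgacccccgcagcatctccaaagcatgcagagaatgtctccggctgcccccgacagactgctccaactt
Acta2, chr19:34329827-34330126, minus strand: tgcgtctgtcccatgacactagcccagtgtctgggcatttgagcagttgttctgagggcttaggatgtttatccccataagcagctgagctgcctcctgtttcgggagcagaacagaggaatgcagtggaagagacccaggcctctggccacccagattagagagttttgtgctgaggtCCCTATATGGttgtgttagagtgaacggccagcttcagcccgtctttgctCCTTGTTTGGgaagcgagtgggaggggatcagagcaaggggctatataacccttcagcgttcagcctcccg
Myh11, chr16:14291502-14291801, minus strand: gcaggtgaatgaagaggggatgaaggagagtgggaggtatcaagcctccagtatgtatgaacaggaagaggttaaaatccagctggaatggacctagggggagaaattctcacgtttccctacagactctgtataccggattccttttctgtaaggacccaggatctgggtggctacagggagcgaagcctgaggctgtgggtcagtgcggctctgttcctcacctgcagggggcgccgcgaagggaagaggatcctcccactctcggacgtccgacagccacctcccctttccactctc

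The Tagln window held 1 match without mismatch, CCATAAAAGG, beginning 112 bases before the start. The Acta2 window held 2 matches with 1 mismatch each, CCCTATATGG and CCTTGTTTGG, beginning 121 and 71 bases before the start, and the Myh11 window held none. Of the windows of 22374 protein-coding genes, 1.62% had a match without mismatch and 10.2% a match with at most 1 mismatch. Of the lists, 5 of 21 endothelial and 2 of 12 mural windows had a match with at most 1 mismatch. A match is a run of letters only, and its absence says that these letters are not in this window.

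Pericyte genes had mixed values in the pools. Cspg4 (NG2) was at 159, 126, 196 and 401 CPM in bSCs and at 125, 91.3, 60.3 and 101 in dSCs, so that the lowest bSC pool, at 126, was just above the highest dSC pool, at 125 (log2 1.22, SE 0.40, adjusted p = 0.0873, edgeR). Mcam (CD146) was at 136, 242, 160 and 430 CPM against 187, 116, 147 and 140 (log2 0.71, SE 0.46, adjusted p = 0.418, edgeR). Pdgfrb, the PDGF receptor that recruits pericytes, was at 62.5, 34.1, 55.1 and 13.9 CPM against 46.7, 51.6, 54.1 and 58.6 (log2 -0.35, SE 0.40). Neither Mcam nor Pdgfrb separated the groups.

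Rgs5, a regulator of G protein signalling in pericytes, was at 119, 44.9, 5.59 and 10.5 CPM in bSCs and at 6.20, 42.8, 15.8 and 31.6 in dSCs (log2 0.91, SE 0.97), and with the pool number as a block its value was -0.08. Kcnj8 was at 43.3, 18, 24.1 and 0 CPM in bSCs and at 15.8, 26.2, 16.9 and 5.59 in dSCs (log2 0.40, SE 1.10). Its partner in the potassium channel of pericytes, Abcc9, was at 0, 22.8, 3.78 and 0 CPM and at 66.3, 7.73, 8.42 and 2.76 (log2 -1.68, SE 1.64). None of these 3 genes passed or separated the groups. Notch3, a receptor that mural cells need, was at 0.987, 0.0731, 0 and 6.95 CPM in bSCs and at 0.306, 6.52, 4.14 and 5.22 in dSCs (log2 -1.01, SE 1.52). Higd1b had no count in any bSC pool and 44 in dSCs, at least 18.5-fold lower when 3 counts over the group are taken as the floor, and it did not pass (adjusted p = 0.153, edgeR). Over the mural list, 7 of 12 fitted values were above 0 and the median was 0.56.

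**Figure D2:**
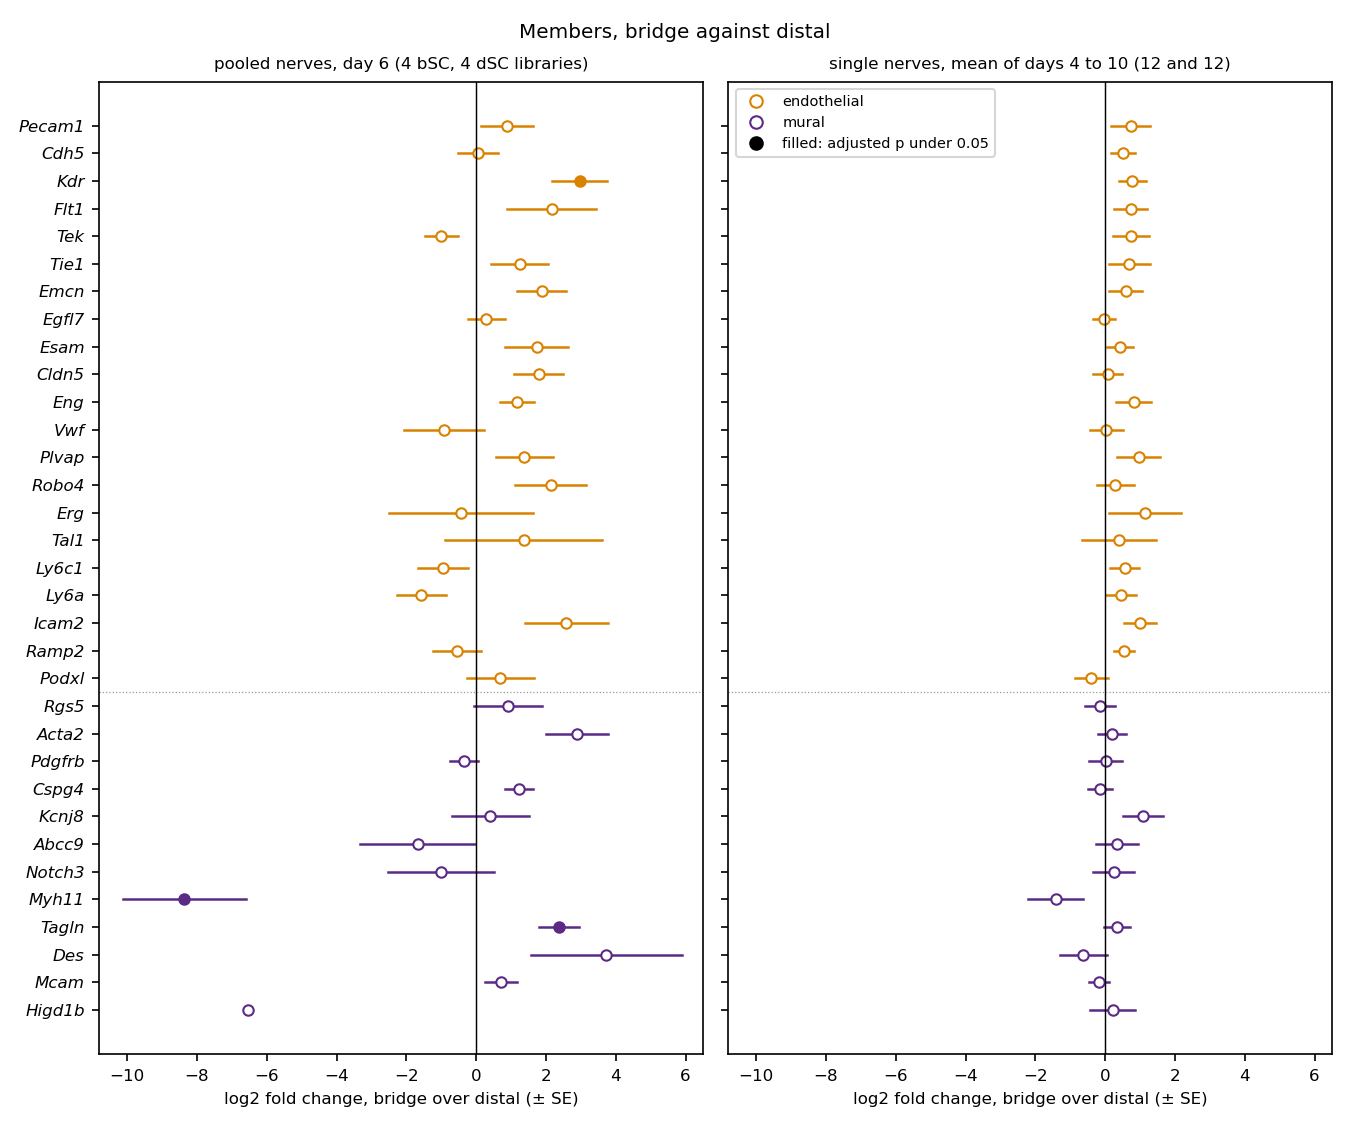
Fitted log2 difference of bSCs over dSCs (horizontal axis) for each of the 33 genes in the pooled nerves (left) and in the single nerves of days 4 to 10 (right), with bars of 1 SE and filled points for an adjusted p under 0.05; Higd1b has no SE in the pooled fit. The 3 filled points are Kdr, Tagln and Myh11 in the pooled nerves, and no gene is filled in the single nerves.

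Lists of related genes gave few calls in the same comparison. Among 31 tested further endothelial genes, Tspan7 was higher in bSCs (log2 1.63, SE 0.43, adjusted p = 0.0461, edgeR). Among 20 further mural genes, Vtn (vitronectin) was lower (log2 -3.31, SE 0.72, adjusted p = 0.0210, edgeR). Of 25 angiogenic ligands and receptors, Adm, which encodes the ligand adrenomedullin that signals through Ramp2, was lower (log2 -6.04, SE 1.07, adjusted p = 0.00917, edgeR). Vegfa, the Kdr ligand, was at most 5.07 CPM in bSCs and 9.56 in dSCs. No macrophage marker of 12 passed, and 3 of 11 fibroblast markers were lower in bSCs: Pi16, Lum and Dcn.

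Against iSCs, both injured regions share the same 4 control pools, so their values are given side by side. In dSCs 1 gene of the lists passed, Cldn5, as lower, beside 5.32% of all genes (2.63% higher and 2.69% lower). In bSCs 3 passed, Eng and Mcam as higher and Myh11 as lower, beside 14.7% of all genes (7.24% higher and 7.46% lower). Over the endothelial list, 11 of 21 fitted values were above 0 in dSCs (median 0.03) and 15 of 21 in bSCs (median 0.78). Markers of the sorted cells moved with this comparison: the summed SC markers were 27223 to 68561 CPM in iSCs, 2806 to 6309 in bSCs and 2105 to 7087 in dSCs. Their part in the results was not tested.

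Cldn5, the tight junction protein of the barrier (chromosome 16, 18776940 to 18778353, plus strand), was at 256, 259, 19.3 and 63.2 CPM in iSC replicates 1, 2, 4 and 5. The 4 dSC pools at 8.13 to 38.5 CPM overlapped with the third of these values, and the log2 difference of dSCs from iSCs was -2.80 (SE 0.73, adjusted p = 0.0409, edgeR). It kept its call only without iSC replicate 4 or 5, with a range of -3.25 to -2.36, and with the pool number as a block it was -2.97 (adjusted p = 0.0288, edgeR). In bSCs against iSCs the log2 value was -1.02 (SE 0.68, adjusted p = 0.375, edgeR).

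Eng was at 66.5, 48.6, 26.4 and 64.8 CPM in iSCs, and the bSC difference was 1.74 (SE 0.49, adjusted p = 0.0294, edgeR), with bSC replicate 5 inside the iSC range. Mcam was at 111, 114, 25.9 and 44.3 CPM in iSCs and differed by 1.72 (SE 0.47, adjusted p = 0.0276, edgeR). All bSC pools were above all iSC pools for Mcam and below them for Myh11, as for 10.5% and 14.5% of all genes. With the pool number as a block the values were 1.10 and 1.48, with adjusted p-values of 0.189 and 0.136 (edgeR). Eng lost its call without iSC replicate 2 or 4 or bSC replicate 1 or 3 (log2 1.47 to 1.76), and Mcam without iSC replicate 4 or 5 or bSC replicate 2 or 5 (log2 1.28 to 1.68). Myh11 was at 198, 43.7, 12 and 15.6 CPM in iSCs, 3757 counts in all against 1 in bSCs (ratio 4466, 95% exact counting interval 801 to 176450; adjusted p = 0.00108, edgeR), and stayed called in all 8 omissions and under the block.

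Pools of one region differed widely in these genes. The median SD of log2(CPM + 1) between iSC pools was 1.11 for endothelial and 1.22 for mural genes, against 0.53 for all tested genes. In bSCs the medians were 1.45, 1.01 and 0.74, and in dSCs 0.88, 0.90 and 0.67 in the same order. In each region of the pools the medians of both lists were above that of all tested genes. The biological coefficient of variation that edgeR estimated had medians of 0.715 for endothelial genes, 0.962 for mural genes and 0.681 for all tested genes in the pools. In the single nerves these were 0.773, 0.831 and 0.939, so that both lists were below all tested genes there by this estimate. The SD of log2(CPM + 1) went the other way in most single-nerve groups. In iSCs its medians were 1.56, 1.44 and 1.19 in the same order. The endothelial median was above that of all tested genes except in dSCs of day 1 (0.68 against 0.80) and bSCs of day 10 (0.71 against 0.75). The mural median was above it except at day 4, in both regions.

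The single nerves gave the same comparison over days 4 to 10, with 12 libraries per region. No gene of the 33 passed, in edgeR or in DESeq2, and 1 had an unadjusted p under 0.05 in edgeR. Over all 15519 genes, 579 passed in DESeq2. In edgeR 16 passed, 0.103%, all of them lower in bSCs, while 1398 had an unadjusted p under 0.05. Without both near-identical libraries 15 genes passed and again none of the lists. A test for a difference between regions that changes with the day also gave 0 calls among all genes (488 at an unadjusted p under 0.05).

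The gene with the smallest p, Icam2, a leukocyte adhesion molecule of endothelium, was at 7.56 to 64.2 CPM in dSCs (median 18.3) and 1.62 to 219 in bSCs (median 26.7), with a log2 difference of 0.99 (SE 0.46, adjusted p = 0.500, edgeR). Plvap was at 76.1 to 1366 CPM in dSCs (median 193) and 92.0 to 2048 in bSCs (median 439; log2 0.96, SE 0.61). Kdr was at 12.8 to 193 CPM (median 40.4) and 20.8 to 255 (median 125; log2 0.78, SE 0.40, adjusted p = 0.586, edgeR). For all 3 genes the ranges of the regions overlapped. Tagln, at 16.6 to 186 CPM in dSCs and 25.4 to 202 in bSCs, had a log2 difference of 0.34 (SE 0.38), and Myh11, at 5.34 to 76.1 and 0.0433 to 64.5 CPM, of -1.42 (SE 0.79, adjusted p = 0.661, edgeR).

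Among the defining markers, Pecam1 was at 46 to 574 CPM in dSCs (median 128) and 61.4 to 1020 in bSCs (median 192; log2 0.73, SE 0.57). Cdh5 was at 16.9 to 119 CPM (median 47.9) and 11.5 to 246 (median 63.6; log2 0.51, SE 0.34), and Tek at 3.57 to 207 (median 58.1) and 12.3 to 315 (median 99.99; log2 0.75, SE 0.51). Cldn5 was at 23.6 to 295 CPM and 21.1 to 387, with medians of 95.8 and 87 (log2 0.07, SE 0.40). Each of these 4 genes had its highest library in the bridge, and the ranges of the regions overlapped.

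Of the pericyte genes, Kcnj8 had the largest fitted value, 1.08 (SE 0.56), at 0.0813 to 63.3 CPM in dSCs (median 22.9) and 0.806 to 118 in bSCs (median 45.0). Its partner Abcc9 was at 0.244 to 60.3 CPM (median 24.1) and 1.13 to 107 (median 30.1; log2 0.33, SE 0.61). Pdgfrb, at medians of 74.7 and 63.6 CPM, Cspg4, at 68.1 and 62.7, and Notch3, at 15.5 and 16.3, had log2 values of 0.01 (SE 0.47), -0.14 (SE 0.35) and 0.24 (SE 0.59). Acta2 was at 72.2 to 642 CPM (median 261) and 70.9 to 650 (median 298; log2 0.19, SE 0.39). None of these medians differed by more than the range within a region.

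Although no single gene passed, 19 of the 21 endothelial genes had a fitted value above 0, with a median of 0.56, beside 48.0% above 0 and a median of -0.03 over all genes. Egfl7 (-0.03) and Podxl (-0.39) were the exceptions. Of the mural genes, 7 of 12 were above 0, with a median of 0.10. The genes of a list are not independent, since all are read in the same libraries.

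In 10 animals the labels give both a bSC and a dSC library. The summed endothelial CPM was higher in the bridge in 10 of these 10 pairs, by a ratio of 1.06 to 4.64 (median 1.48), and in 9 of 9 without the near-identical pair (median 1.59). Gene by gene the pairs were less even, with 10 to 21 of the 21 endothelial genes higher in the bridge. The largest ratio was that of day 8 replicate 0, with 21 of 21. In the 3 pairs of day 4, by contrast, 11, 12 and 10 of 21 were higher in replicates 0, 1 and 2. In replicate 2 of that day, where the sums had a ratio of 2.50, Ly6a made up 52.0% of the bridge sum, and without Ly6a the ratio was 1.42. With Ly6a left out of every sum, 10 of 10 pairs were still higher in the bridge (ratio 1.02 to 5.37, median 1.56). The mural sum was higher in 5 of 10 pairs (ratio 0.71 to 2.73, median 1.03). By gene, Tie1, an orphan receptor that partners Tek, was higher in the bridge in 9 of 10 pairs, and Plvap, Tek, Eng, Cdh5, Flt1, Icam2 and Erg in 8, as were the mural genes Acta2, Tagln and Notch3. Without the near-identical pair, Tie1, Plvap and Tek were higher in 8 of 9 pairs. Eng, Cdh5, Flt1, Icam2, Erg, Acta2, Tagln and Notch3 were then higher in 7. At the other end, Esam, Vwf, Podxl, Pdgfrb and Mcam were higher in 4 of the 10 pairs and Cspg4 and Myh11 in 2. Without the near-identical pair, Vwf and Mcam were higher in 3, and the others of this group kept their counts. Pairs were not counted for all genes.

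**Figure D3:**
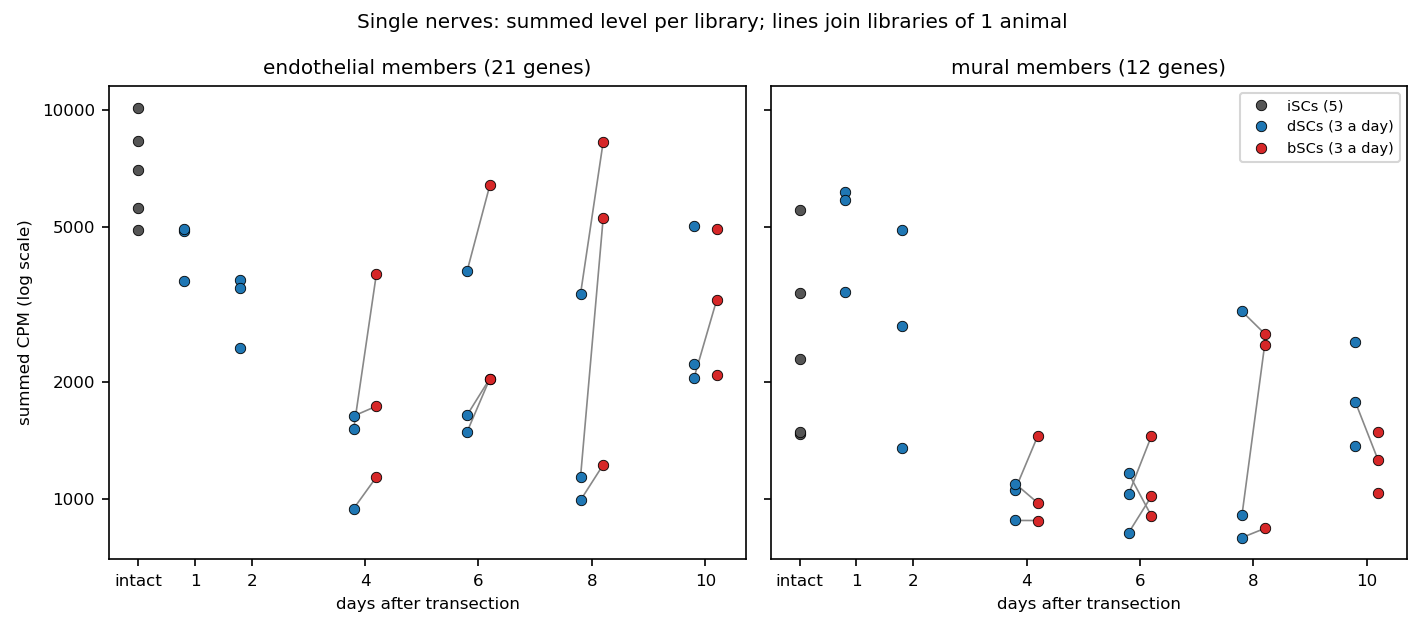
Summed CPM (log axis) of the 21 endothelial genes (left) and the 12 mural genes (right) in each single-nerve library by day after transection, with iSCs at the left of each panel and a line joining the dSC and bSC libraries of 1 animal. The endothelial sums of iSCs, 4908 to 10159 CPM, lie above most libraries of days 4 to 10, all 10 joined pairs rise towards the bSC library, and the day 8 bSC libraries span 1228 to 8297 CPM.

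On several days, replicates of the same day differed together across the endothelial list. Of the 3 dSC libraries of day 8, replicate 1 was the highest in 21 of 21 endothelial and 11 of 12 mural genes. Of the 3 bSC libraries of day 8, replicate 2 was the lowest in 21 of 21 and 10 of 12. At day 6, replicate 3 was the highest of 3 in 19 of 21 endothelial genes in dSCs and again in bSCs, which came from the same animal. Summed over the list, that animal had 3865 CPM in dSCs and 6411 in bSCs, against 1493 to 2044 CPM in the other 4 libraries of the day. At day 10, dSC replicate 0 was the highest in 18 of 21 endothelial genes. In the bSCs of day 10, replicate 2 was the highest in 15 and replicate 0 the lowest in 17. In the dSCs of day 2, replicate 3 was the highest in 16. Day 4 had no such library in dSCs, where replicates 0, 1 and 2 were the highest in 5, 7 and 9 endothelial genes and in 4 mural genes each.

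Rgs5 was the gene of the lists whose call turned on the pairing. Over all 24 libraries its log2 difference was -0.15 (SE 0.44), and with the animal as a block over the 10 pairs it was -1.55 (adjusted p = 0.0169, edgeR), or -1.50 without the near-identical pair (adjusted p = 0.0325, edgeR). The same 10 pairs without the block gave -1.49 (adjusted p = 0.112, edgeR). The day 10 pair decided this value, with 9.03 CPM in the bridge and 904 in the distal stump, and over the 9 pairs of days 4, 6 and 8 the blocked value was 0.20 (adjusted p = 0.832, edgeR). Rgs5 was higher in the bridge in 6 of the 10 pairs. No other gene of the lists passed in the blocked fits.

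Against the 5 single-nerve iSC libraries, 11 genes of the lists passed in dSCs of days 4 to 10 (5.32% of all genes, 1.84% higher and 3.49% lower) and 8 in bSCs (9.34% of all genes, 2.58% higher and 6.75% lower); the iSC libraries are shared by both. In dSCs Flt1, Egfl7, Esam, Cldn5, Ly6c1, Icam2, Acta2, Kcnj8, Tagln and Higd1b were lower and Mcam was higher. In bSCs Egfl7, Cldn5, Ly6c1, Acta2, Myh11, Tagln and Higd1b were lower and Mcam was higher. Several of these calls were lost in most fits that each left out 1 library. Of 17 such fits in dSCs, Higd1b lost its call in 15, Flt1 and Esam in 13, Kcnj8 in 10 and Icam2 in 9. In bSCs Higd1b lost it in 15 and Ly6c1 in 9 of 17. Over all genes, 416 to 835 were called in the dSC fits, against 826 with every library. In the bSC fits 1019 to 1366 were called, against 1449. Cldn5, Egfl7, Tagln and Mcam were called in 17 of 17 fits in both regions. None of the 21 endothelial genes had a fitted value above 0 in either region, with medians of -1.62 in dSCs and -1.05 in bSCs, beside 46.7% and 44.2% of all genes above 0. In the pooled nerves, all of day 6, the medians against pooled iSCs were 0.03 and 0.78. The iSC levels themselves differed between the experiments. Endothelial sums were 998 to 1795 CPM in pooled and 4908 to 10159 in single-nerve iSCs. Summed SC markers were 27223 to 68561 and 6908 to 32894 CPM in the same order. The part of these differences in the medians was not tested. Without both near-identical libraries, 7 genes passed in dSCs, where Esam, Icam2, Kcnj8 and Higd1b no longer did (adjusted p = 0.0520 to 0.0636, edgeR), and 5 in bSCs, where Ly6c1, Acta2 and Higd1b no longer did (adjusted p = 0.0519 to 0.0566, edgeR). Of all 16037 genes tested in this fit, 552 passed in dSCs and 1157 in bSCs.

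Of the endothelial list, Cldn5 had the largest change, and whether vessel cells or SCs carried it was not tested. It was at 2794, 1113, 844, 1401 and 1514 CPM in iSC replicates 0, 1, 3, 4 and 5, at 23.6 to 295 in dSCs (median 95.8) and at 21.1 to 387 in bSCs (median 87.0). All injured libraries of days 4 to 10 lay below all iSC libraries, as they did for 0.696% of all genes in dSCs and 0.638% in bSCs. The log2 values were -3.83 in dSCs (SE 0.50, adjusted p = 2.64e-05, edgeR) and -3.76 in bSCs (SE 0.50, adjusted p = 1.85e-05, edgeR), and -3.65 and -3.67 without the near-identical libraries. Already at days 1 and 2 the 6 dSC libraries were at 105 to 375 CPM, below all iSC libraries as for 0.767% of all genes (log2 -2.60, SE 0.62, adjusted p = 0.0408, edgeR). In that comparison 0.677% of all genes were called, 0.477% as higher and 0.2% as lower. This early call was lost in all 11 fits that left out 1 library (log2 -2.72 to -2.26, adjusted p = 0.0535 to 0.138, edgeR).

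Egfl7, a secreted matrix protein of endothelium, was at 432, 219, 669, 322 and 288 CPM in iSCs, at 41.2 to 202 in dSCs and at 13.9 to 327 in bSCs. Every dSC library was below every iSC library. The log2 values were -2.11 (SE 0.38, adjusted p = 0.00125, edgeR) and -2.14 (SE 0.38, adjusted p = 0.000692, edgeR). The exons of Egfl7 share 401 bases with other genes, among them Mir126, and reads on these bases cannot be assigned to 1 gene. Exon bases were also shared by Ramp2 (1103 bases), Notch3 (488), Des (220), Eng (185) and Mcam (17). Icam2, at 64.6 to 155 CPM in iSCs, was also above all dSC libraries (log2 -2.08, SE 0.56, adjusted p = 0.0262, edgeR). Omission of single libraries left Egfl7 called in 17 of 17 fits in both regions and Icam2 called in 8 of 17 fits in dSCs.

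The other endothelial markers differed strongly among the iSC libraries themselves. Pecam1 was at 23.7, 12.6, 1362, 535 and 912 CPM in iSC replicates 0, 1, 3, 4 and 5. Plvap was at 3.91, 24.9, 2415, 909 and 1182 CPM, and Eng at 10.5, 17.8, 918, 431 and 407. Replicates 0 and 1, in which few genes were detected, were the low libraries for all 3, whereas replicate 0 had the highest Cldn5 level. Replicate 0 also had the highest summed SC markers, 32894 CPM against 6908 to 18051 in the other iSC libraries. Their part in the Cldn5 values was not tested. Without the 4 libraries with few genes detected, 15 genes of the lists passed in dSCs, among them Pecam1 (log2 -2.45, adjusted p = 0.0135), Plvap (log2 -2.30, adjusted p = 0.0285) and Eng (log2 -1.72, adjusted p = 0.0369, all edgeR), and 9 in bSCs. Of all 16010 genes tested in this fit, 514 passed in dSCs and 1186 in bSCs. Ly6c1 did not pass in either region then (log2 -1.32 and -0.78), and leaving out iSC replicate 1 alone, with 1704 CPM against 125 to 499 in the other iSC libraries, already removed its call in both.

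Tagln was at 722, 590, 174, 344 and 719 CPM in iSCs and had a log2 value of -2.66 in dSCs (SE 0.47, adjusted p = 0.000964, edgeR) and -2.32 in bSCs (SE 0.47, adjusted p = 0.00238, edgeR). Acta2, at 734, 555, 334, 844 and 2527 CPM in iSCs, had values of -1.85 (SE 0.48, adjusted p = 0.0223, edgeR) and -1.66 (SE 0.48, adjusted p = 0.0281, edgeR). Both genes were lower in the later injured single nerves than in iSCs, with overlap between libraries. The pooled bridge differed from this. Mean levels in pooled iSCs, dSCs and bSCs were 103, 30.5 and 159 CPM per kb for Tagln and 190, 23.5 and 174 for Acta2. Neither gene was called against pooled iSCs. In the single nerves, Acta2 lost its call without iSC replicate 5 in both regions (log2 -1.11 and -0.96), and in dSCs also without day 6 replicate 1 or day 8 replicate 0. Myh11, at 1.12, 0.179, 71.5, 171 and 521 CPM in iSCs, passed in bSCs (log2 -3.66, SE 0.96, adjusted p = 0.0157, edgeR) but not without iSC replicate 5 (log2 -2.33, adjusted p = 0.140, edgeR).

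Acta2 and Tagln were above the later dSC range in 5 of the 6 early dSC libraries. Acta2 was at 1554, 3503 and 3489 CPM at day 1 and at 2604, 1419 and 479 at day 2, against 72.2 to 642 in the dSCs of days 4 to 10. Tagln was at 566, 2071 and 947 CPM at day 1 and at 1898, 388 and 132 at day 2, against 16.6 to 186 later. Day 2 replicate 4 was the library inside the later range for both genes. The highest values of each day, 3503 and 2604 CPM of Acta2 and 2071 and 1898 CPM of Tagln, were those of the early libraries with few genes detected. Without these, Tagln was at 566 and 947 CPM at day 1 and 388 and 132 at day 2. Myh11 was at 301, 5.36 and 445 CPM at day 1 and at 22.6, 217 and 58.6 at day 2, which overlapped with 5.34 to 76.1 later. The summed mural level was 1359 to 6173 CPM in the 6 early libraries and 1472 to 5549 in iSCs. Against iSCs neither early value passed (Acta2 log2 1.05, SE 0.59; Tagln 0.94, SE 0.58), and days 1 and 2 were not tested against later days.

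Mcam was the only gene of the lists that passed as higher in the injured single nerves. It was at 40.9, 6.46, 51.0, 77.9 and 92.0 CPM in iSCs, at 146 to 298 in dSCs of days 4 to 10 (median 181) and at 32.8 to 362 in bSCs (median 197). All dSC libraries were above all iSC libraries, as for 1.22% of all genes. The log2 values were 1.91 (SE 0.41, adjusted p = 0.00537, edgeR) and 1.74 (SE 0.40, adjusted p = 0.00732, edgeR), and 1.98 and 1.56 without the near-identical libraries, with the call kept in 17 of 17 omissions in both regions. The early dSC libraries, at 43.6 to 131 CPM, overlapped with iSCs (log2 0.75, SE 0.42). In the same comparisons macrophage markers summed to 311 to 1245 CPM in iSCs, 2472 to 13564 in dSCs and 1125 to 13741 in bSCs, and 10 of 12 of them were called higher in dSCs; their part in the results was not tested.

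**Figure D4:**
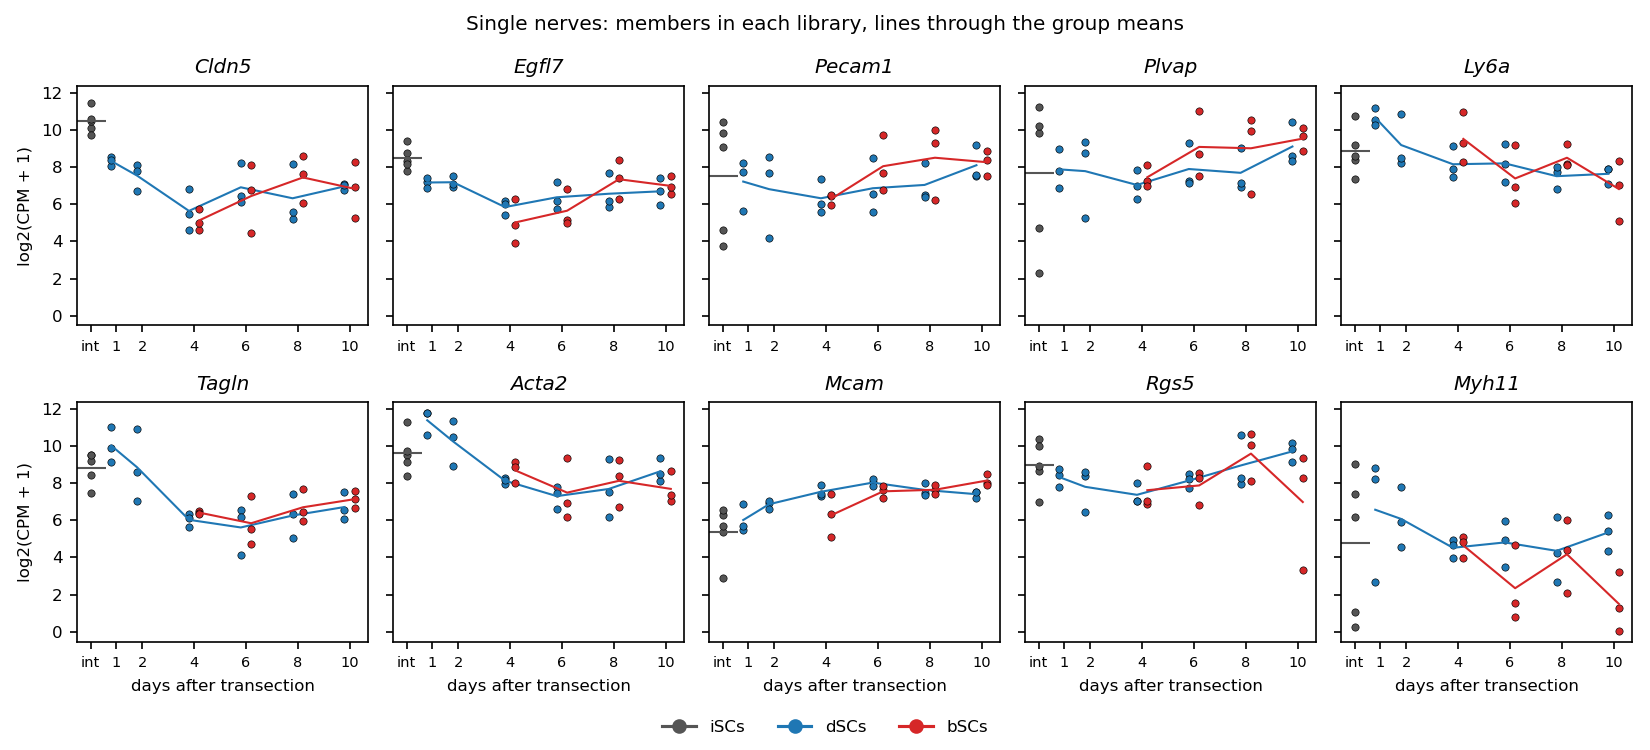
Each panel shows 1 gene, log2(CPM + 1) on the vertical axis against day after transection, for the 5 iSC libraries and for 3 dSC and 3 bSC libraries a day, with lines through the group means. Cldn5 lies below all iSC libraries from day 1 on, Mcam is above all iSC libraries in the dSCs of days 4 to 10, and the highest single values of Acta2 and Tagln are at days 1 and 2.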

How the data were processed

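The authors aligned Smart-seq2 reads to the mouse build mm9 with TopHat2 2.0.11, counted reads on genes with HTSeq and deposited a table of raw, unfiltered counts for each lane; the library type does not keep strand. Of these counts, 47 mouse libraries (12 pooled, 35 single-nerve) were used and the cultured rat libraries were not. Lanes of a library were summed, and HTSeq's categories (52.5% to 60.5% on no feature) and 92 ERCC spike-ins (at most 0.864%) were left out of library sizes. Each experiment was fitted once over all its groups with edgeR 4.0.16 in R 4.3.3 (TMM, filterByExpr, quasi-likelihood test, Benjamini-Hochberg adjustment over all genes tested, threshold 0.05); in the single nerves the regions were averaged over days 4 to 10 and the days 1 and 2. Intervals and the floor of 3 counts cover counting error only.

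Groups and animals came from the sample labels. Same-numbered pools, and single-nerve libraries of one animal, are paired by these labels; deviations from group means correlated on average by -0.00393 over 10 same-numbered pooled combinations (-0.156 to 0.121) and by 0.176 over 9 single-nerve pairs (-0.125 to 0.68), and the fit with this block is given where it changes a call. The bSC library of day 10 replicate 0, whose labels conflict on the animal, and replicate 2, whose animal has no dSC library, entered no pair.

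DESeq2 1.42.0, its size factors, no filter, the study's filter (100 counts in 85% of libraries, which keeps 28 of the 33 genes), only the groups compared, a lane covariate and omission of each library were tried as alternatives. Fits without the near-identical or the few-gene libraries, and over subsets of pairs, and pair sums without Ly6a, were added after the data were seen. Scripts were tested on simulated counts. Genes named by rule were the called ones, 14 defining markers of both lists (Pecam1, Cdh5, Kdr, Tek, Cldn5, Rgs5, Kcnj8, Abcc9, Acta2, Myh11, Tagln, Pdgfrb, Cspg4 and Notch3) and, from other lists, the called genes with the largest fold; other members were named after their values were seen. The members and lists were chosen with earlier results of these data known. Positions and upstream sequences are from NCBIM37.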

Additional observations from a re-analysis of the deposited data

Results flagged for a closer look

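Of 140 groups of 4 or 5 libraries examined, 132 of a single gene in 1 region and 8 of a list's summed level, 7 held a library whose distance from the nearest other exceeded Dixon's 95% limit, and chance alone gives about 7. In the pooled nerves these were Vwf in bSC replicate 5 (0 CPM, against 52.9 to 87.2 in the other bSC pools), Myh11 in bSC replicate 3 (0.0859 CPM, a single count, against 0), Tagln in iSC replicate 1 (352 CPM, against 98 to 103) and Des in dSC replicate 3 (2.73 CPM, against 0 to 0.0765). In the single-nerve iSCs they were Cdh5 in replicate 0 (29.0 CPM, against 83.4 to 121), Pdgfrb in replicate 0 (0.140 CPM, against 49.9 to 164) and Kcnj8 in replicate 1 (2.51 CPM, against 75.3 to 251). The last 3 are in the iSC libraries with few genes detected.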

How the results depend on the processing

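Of 251 recomputed counts and sums, 203 stayed within 1.5 times or 1 SD of the reported value, and of 1196 recomputed gene values 973 kept direction and side of the threshold, 158 lost a call, 5 gained one and 60 changed sign; causes were not tested. The genes called in pooled bSCs against dSCs numbered 5 with DESeq2 (adding Acta2 and Cspg4), 1 with only the groups compared (Tagln, since Myh11 then failed the filter) and 1 to 3 with 1 library left out, while all genes called numbered 746, 1939 with DESeq2 and 236 with the replicate block. Pooled dSCs against iSCs gave 5 with DESeq2 and 0 to 1 with 1 library left out, and pooled bSCs against iSCs gave 5 with DESeq2, 1 with the replicate block and 1 to 3 with 1 left out. Of all 13751 genes tested, DESeq2 called 1393 in pooled dSCs and 3114 in pooled bSCs against iSCs, and the block called 968 in the latter. In the single nerves, bSCs against dSCs gave 1 with the replicate block of 10 pairs and 1 with that of 9 pairs (Rgs5 in both), and 0 in every omission, as did the region by day test. These blocked fits called 236 of all 16190 and 177 of all 16138 genes tested. dSCs against iSCs gave 7 without the near-identical libraries and 5 to 11 with 1 left out. bSCs against iSCs gave 5 without the near-identical libraries, 4 with only the groups compared (541 of all 14381 genes tested) and 5 to 8 with 1 left out. Early dSCs against iSCs gave 3 with DESeq2 (560 of all 15519 genes tested), 0 with only the groups compared, 0 without the few-gene libraries and 0 in every omission. The block changed no other call than those named.

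Signs changed for uncalled genes near 0. In the pooled nerves Rgs5 was -0.080 with the replicate block, and with 1 library left out Cdh5 was -0.22 to 0.37, Rgs5 -0.24 to 1.34, Kcnj8 -0.21 to 0.82 and Abcc9 -4.17 to 0.075. In the single nerves Pdgfrb was -0.060 with DESeq2, -0.060 with its size factors, -0.023 without a filter, -0.041 with the study's filter, -0.024 with only the groups compared and -0.10 without the near-identical libraries. With the replicate block of 10 pairs Cldn5 was -0.030, Abcc9 -0.34, Cspg4 0.0043 and Notch3 -0.63; the same pairs without the block gave -0.089, -0.45, 0.041 and -0.61, and the block of 9 pairs gave -0.10, -0.42 and -0.62 for Cldn5, Abcc9 and Notch3. Rgs5 was 0.20 in the block of days 4, 6 and 8, and Cldn5 was -0.016 without the near-identical libraries. With 1 library left out, Cldn5 was -0.25 to 0.41, Pdgfrb -0.23 to 0.057, Rgs5 -0.44 to 0.15, Acta2 -0.23 to 0.44 and Notch3 -0.82 to 0.35. Summed endothelial log2 ratios were -0.077 to 0.54 in the pools and 0.51 to 0.89 in the single nerves over the omissions, and mural ones 0.91 to 1.5 and -0.13 to 0.17.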
